A study of Canis lupus familiaris with 51 samples.

Results

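The genes described here mark lymphocytes in canine cutaneous mast cell tumors (MCTs): 38 listed genes, in a T group of 21, a cytotoxic group of 8 and a B group of 9. A gene entered when at least 1 probe of the array carried its symbol, which held for 21 of the 38 genes with 26 probes, out of 43603 probes on the array. These were 12 genes of the T group, 4 of the cytotoxic group and 5 of the B group. The 17 genes with no probe under their own symbol included PRF1, which encodes perforin, and FOXP3, the factor of regulatory T cells. Of those 17, CD2, CD3D, CD3G and TRAT1 were on the array under older numbered names, matched through the RefSeq gene table, and their values are given apart from the 21. The other 13 were CD5, PDCD1, ZAP70, UBASH3A and FOXP3 of the T group, GZMB, GZMK, PRF1 and TBX21 of the cytotoxic group, and PAX5, BLK, TNFRSF17 and TNFRSF13B of the B group, and no value is given for them.

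The RNA of 51 MCTs was measured on one-color Agilent arrays designed for the dog, each tumor on an array of its own. The tumors came from dogs 3 to 14 years old, 19 labeled male and 30 female, with 9 Boxers and 9 Labrador Retrievers as the largest purebred groups. Healthy skin was not analysed here. The reference samples were 5 undifferentiated and 13 differentiated MCTs, classed by histology, and the other 33 are called unknown samples, 7 of them classified as undifferentiated and 26 as differentiated from their expression of cell cycle genes. These classes come from the study and not from the sample labels, and undifferentiated sample LM0 was matched to its case by elimination. The mast cell genes KIT, MS4A2, FCER1A and CMA1 were well above background on 51 of 51 arrays. KIT, the stem cell factor receptor, was lowest in T77, at a log2 level of 9.11, with a median of 13.3.

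T cells recognize antigen through a receptor that signals through the CD3 chains and the kinase LCK, and the coreceptors CD4 and CD8 divide them into helper and cytotoxic cells. Cytotoxic cells kill with granzymes and perforin, and B cells recognize antigen through a receptor that signals through CD79A and CD79B. Both kinds of lymphocyte infiltrate skin tumors, so that RNA of a whole tumor holds their transcripts beside those of the mast cells. In such RNA, fewer cells of a type and less RNA per cell cannot be told apart.

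Each probe is a 60-base sequence. The probes of 5 genes are shown because the results turn on them: the T cell marker CD3E, the coreceptors CD4 and CD8A, and the B cell genes MS4A1 and CD79B. They are written 5′ to 3′ as the array files list them, in the sense of the transcript, with no base singled out.
CD3E probe: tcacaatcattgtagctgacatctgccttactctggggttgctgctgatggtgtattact
CD4 probe: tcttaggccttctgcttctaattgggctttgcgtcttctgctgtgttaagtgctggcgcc
CD8A probe: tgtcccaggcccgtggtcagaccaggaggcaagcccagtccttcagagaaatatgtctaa
MS4A1 probe: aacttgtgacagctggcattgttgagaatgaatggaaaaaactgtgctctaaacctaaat
CD79B probe: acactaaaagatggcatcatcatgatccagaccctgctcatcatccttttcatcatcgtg

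The array files place the CD3E probe at chr5:18412091-18412150 and the CD4 probe at chr27:41233213-41233272. They place the MS4A1 probe at chr21:53912029-53912088 and the CD79B probe at chr9:14968495-14968554, and they name no genome build for any of these positions. The 60 bases of the CD8A probe are spread over chr17:41463098-41465277. GC content of the 26 probes was between 35% and 60%.

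Levels are log2 processed signals, quantile-normalized over the 51 arrays, and each gene is represented by its brightest probe. They are compared between tumors and not between genes, since each probe binds with its own strength. A spot is called well above background by the scanner software, and 59.4% to 74.8% of the spots of an array were so. Of the 21 genes, LCK, CD7, GATA3 and CD79B were well above background on all 51 arrays. Fewer than 26 arrays were well above background for 6 genes: MS4A1 on 25, CD28 on 21, CD6 on 20, POU2AF1 on 12, ICOS on 7 and EOMES on 4. The values of these 6 genes in the other tumors lie in the range of the background and their order there carries little information.

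The lymphocyte genes varied more between tumors than most probes. The median standard deviation (SD) over the 51 tumors was 0.90 for the 21 genes and 0.51 over all probes on the log2 scale. The largest SDs, 2.06 for MS4A1 and 1.54 for POU2AF1, were of genes near background on most arrays. GATA3, well above background on all 51, had 1.39. The part of dim signal in these SDs was not tested. CD3E, a signaling chain of the T cell receptor complex, ran from 4.80 in LM0 through a median of 7.16 to 9.28 in T121. CD79B, a signaling chain of the B cell receptor, ran from 5.21 in T101 through a median of 6.04 to 8.84, again in T121. MS4A1, the B cell surface protein CD20, had the widest range of the 21 genes, from 1.76 in T47 to 9.91 in T121. CD7, a surface protein of T and natural killer cells, had the narrowest range, from 8.79 to 10.3, and the smallest SD, 0.33.

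T121, a differentiated MCT of the unknown samples, was the highest of the 51 tumors for 11 of the 21 genes. These were LCK, CD3E, SH2D1A, CD40LG, CD27, CD6, CD28 and ICOS of the T group and CD79B, CD79A and MS4A1 of the B group. T117, also differentiated and unknown, was highest for POU2AF1, a coactivator of B cell transcription, and second for 4 other genes. At the other end, LM0 was lowest for CD3E, SH2D1A and GZMA, while T6 was lowest for LCK, CD4, CD40LG and CTLA4. On the array of T6, 59.4% of spots were well above background, the lowest share of the 51, and on that of LM0 62.2%, and the part of array brightness in these levels was not tested.

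**Figure D1:**
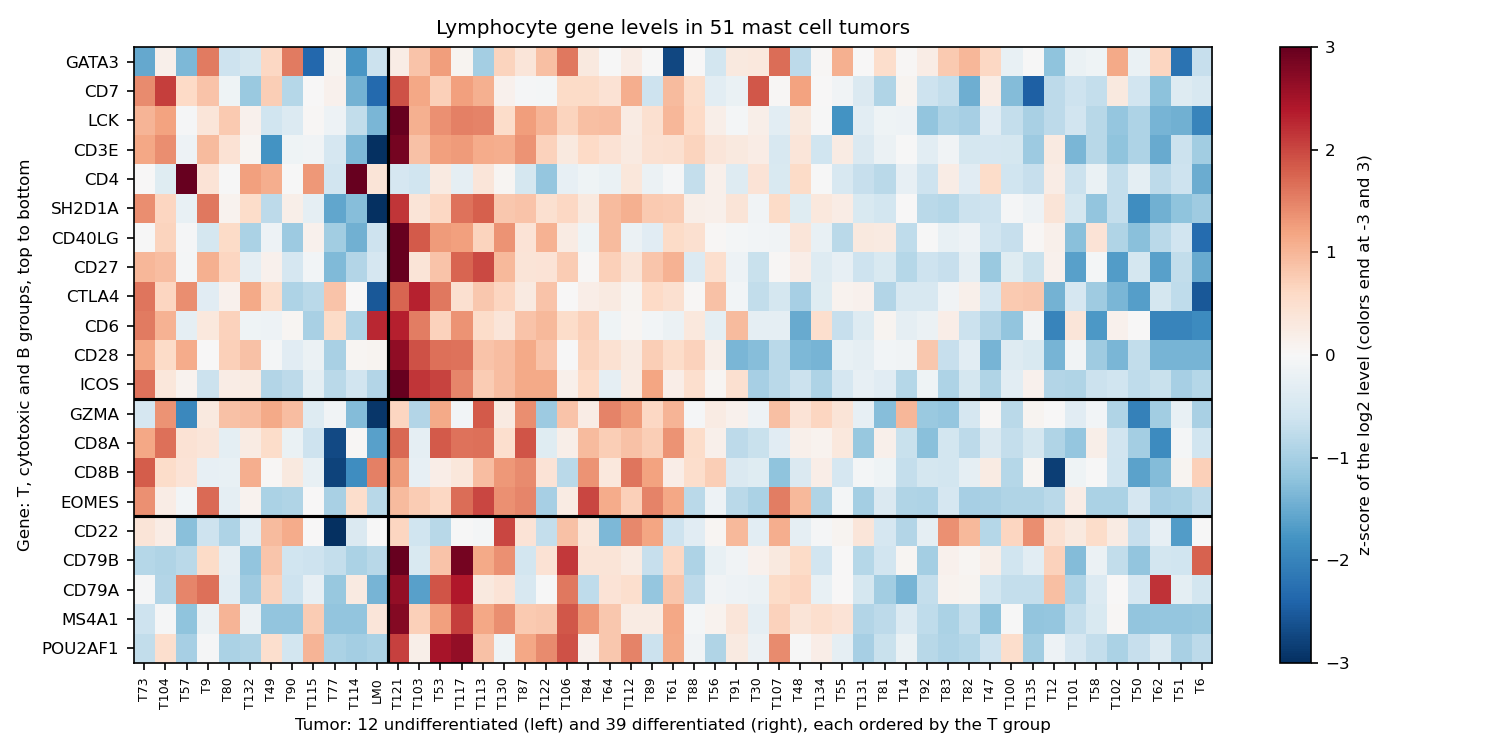
Levels of the 21 genes (rows, in the T, cytotoxic and B groups) in the 51 tumors (columns, 12 undifferentiated left of the line), as z-scores of the log2 level over the 51 tumors. T121, the first differentiated column, is dark red in most rows of the T and B groups, and the row of CD4 differs from its neighbors, with its highest levels in T57 and T114.

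Most of the genes rose and fell with CD3E from tumor to tumor. Of the 20 other genes, 17 correlated with CD3E past an adjusted p of 0.05 (Pearson's r, permutation test with 100000 resamples, Benjamini-Hochberg over the 20), and 16 did so by Spearman's rho. The median r was 0.59, with 0.68 in the T group, 0.56 in the cytotoxic group and 0.46 in the B group, against -0.02 over all 43603 probes. An r over 0.5 was reached by 13 of the 20 genes and by 0.459% of all probes. CD8B had the lowest r that passed, 0.33, and 97.0% of all probes had a lower r. The permutation test was not run on all probes. When T121 and T117 were left out, an alternative chosen after seeing the data, 13 of the 20 genes passed and the median r was 0.54. The genes that no longer passed were CD6, CD8B, CD79A and CD79B.

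SH2D1A, an adaptor of T and natural killer cell signaling, had the highest r with CD3E over the 51 tumors, with r = 0.86 and rho = 0.84 (permutation test, adjusted p = 2e-05, the smallest these permutations and adjustment gave). It kept an r of 0.80 without the 2 tumors farthest from the CD3E median, 0.83 within the 39 differentiated MCTs, and between 0.74 and 0.97 within the 6 scan days with at least 6 arrays. LCK had r = 0.83 and a higher rho than SH2D1A, 0.88, and its r without those 2 tumors was 0.81. CD27, a costimulatory receptor of the tumor necrosis factor receptor family, had r = 0.78 and rho = 0.81 (adjusted p = 2e-05 for both genes, permutation test). Of the other T group genes that passed, ICOS, a costimulatory receptor of activated T cells, had r = 0.75 and rho = 0.74, and CD40LG, the ligand through which helper T cells activate B cells, r = 0.70 and rho = 0.70. CD7, CD28, CTLA4, an inhibitory receptor of activated T cells, and CD6 had r of 0.68, 0.62, 0.59 and 0.40. Within the scan days CTLA4 ran from -0.70 to 0.85 and was positive in 5 of 6.

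In the cytotoxic group, CD8A had r = 0.69 with CD3E and rho = 0.70, and GZMA, the protease granzyme A, r = 0.52 and rho = 0.50 (permutation test, adjusted p = 2e-05 and 0.000138 for r). Within the scan days r for GZMA ran from -0.57 to 0.72, and it was positive in 5 of 6. EOMES had r = 0.59 and CD8B r = 0.33 with a rho of 0.44. In the B group, MS4A1 had r = 0.62 and rho = 0.67, with 0.79 within the differentiated and 0.15 within the 12 undifferentiated MCTs. MS4A1 was well above background on 4 of those 12 arrays, and the difference between these within-class values was not tested. POU2AF1 had r = 0.54 and CD79B r = 0.46, with 0.48 and 0.31 without the 2 tumors farthest from the CD3E median. CD79A had r = 0.33 (adjusted p = 0.0237, permutation test) but 0.12 without the 2 tumors farthest from the CD3E median, so that its correlation rests on those tumors, and its rho of 0.22 did not pass (adjusted p = 0.136).

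The 3 genes that did not pass with CD3E were CD4 (r = -0.09, rho = 0.12), GATA3 (r = 0.09, rho = 0.12) and CD22 (r = 0.05, rho = -0.02). CD22, an inhibitory coreceptor of B cells, and GATA3, a transcription factor of helper T cells that keratinocytes and other cells express too, were well above background on 50 and 51 arrays. Their permutation adjusted p-values for r were 0.572 for CD4, 0.572 for GATA3 and 0.749 for CD22.

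**Figure D2:**
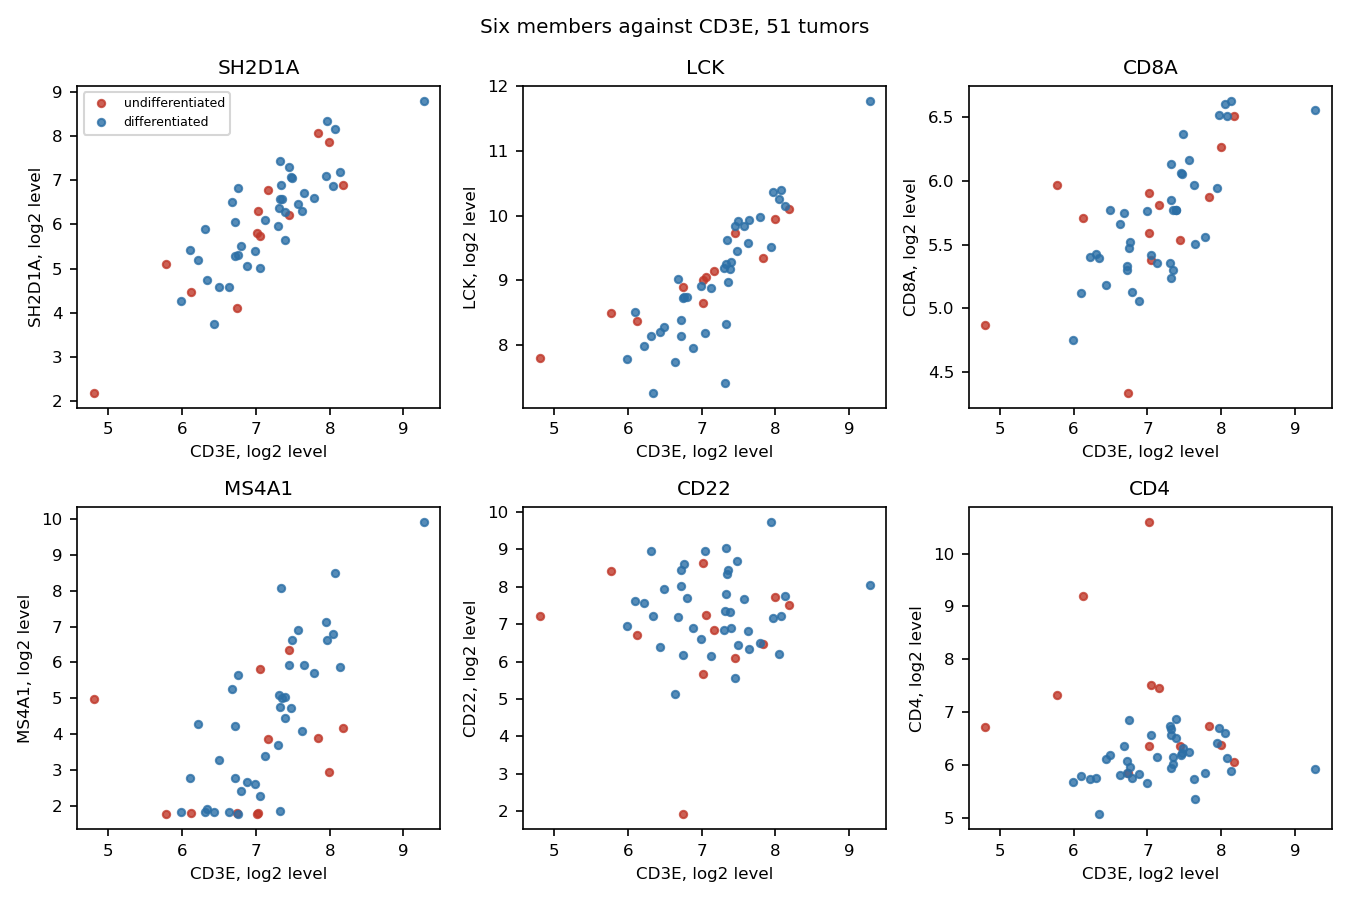
Log2 level of 6 genes against the log2 level of CD3E, 1 point per tumor, red for undifferentiated and blue for differentiated MCTs. SH2D1A, LCK and, more loosely, CD8A and MS4A1 rise with CD3E, with T121 at the far right, while CD22 and CD4 do not, and the 2 highest CD4 points are undifferentiated tumors with CD3E levels of 7.02 and 6.12.

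As a description, the mean z-score of the T group correlated with that of the cytotoxic group at r = 0.72 and with that of the B group at r = 0.63 over the 51 tumors, which share their arrays. Among probes that carry the symbol of none of the 38 genes, the 5 with the highest r to the T group mean were TC64497, which has no description in the files (r = 0.91), TC60112, described as a partial Lck match (0.90), LOC489383, the listed gene CD3G under its older name (0.90), LOC607937, described as a T cell receptor alpha constant region (0.90), and D16409, described as a canine T cell receptor (0.89). KLRD1, a receptor of natural killer and some cytotoxic T cells, correlated with CD3E at r = 0.64 and rho = 0.65 (permutation test, adjusted p = 8e-05 for r). The first measured genes of the mast cell, neutrophil, macrophage, keratinocyte, endothelial, fibroblast and proliferation lists had r between -0.33 and 0.13 with CD3E, none past an adjusted p of 0.05 (permutation test, 8 genes, chosen after the result for CD4 was seen).

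The comparison of the reference classes asked which of these genes differ between MCTs that histology had separated. None of the 21 genes was called, with a call being an adjusted p under 0.01 in limma and a fold of at least 2, while 1.85% of all probes were called. At an unadjusted p under 0.05 there were 2 of 21, CD4 and CD6, against 23.5% of all probes, and the methods' t-test also called none. The median log2 fold change, undifferentiated minus differentiated, was 0.10 in the T group, 0.13 in the cytotoxic group and -0.29 in the B group, against 0.04 over all probes. Without LM0, a setting chosen after seeing the data, the medians were 0.43, 0.35 and -0.31, against 0.03 over all probes.

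CD3E was at 7.84 in T9, 7.02 in T57, 7.99 in T73, 7.02 in T90 and 4.80 in LM0, and between 5.99 and 7.94 with a median of 7.31 in the 13 differentiated reference samples. LM0 lay below and T73 slightly above that range, and the other 3 lay within it. The log2 fold change of -0.11 ± 0.42 (SE) had a limma adjusted p of 0.906 and a 95% interval from -0.99 to 0.78. Its sign rested on LM0, without which it was 0.42 ± 0.33 (adjusted p = 0.492, limma).

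CD4 was at 6.74 in T9, 10.6 in T57, 6.37 in T73, 6.36 in T90 and 6.72 in LM0, and between 5.67 and 6.88 with a median of 5.94 in the differentiated reference samples. T57 stood far above every other reference sample, and the other 4 lay within the range of the differentiated ones. The log2 fold change of 1.27 ± 0.49 (SE) had a limma adjusted p of 0.119, and without T57 it was 0.46 ± 0.20, with an adjusted p of 0.15. CD6, a T cell surface receptor, had a log2 fold change of 1.08 ± 0.43 (SE, adjusted p = 0.135, limma), with 2 of 5 undifferentiated and 5 of 13 differentiated arrays well above background, and 0.72 ± 0.43 without LM0 (adjusted p = 0.358).

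MS4A1 and POU2AF1 were well above background on none of the 5 undifferentiated reference arrays, and on 8 and 2 of the 13 differentiated ones. Against the lowest signal that counts as well above background on each undifferentiated array, the MS4A1 mean of the differentiated samples was 1.06-fold higher. This fold leaves out the spread between tumors, and the difference was not called. As measured, the means were 4.21 and 3.08, with a log2 fold change of -1.13 ± 0.86 (SE, limma adjusted p = 0.46). Its 95% interval ran from -2.95 to 0.70. For POU2AF1 such a fold fell under 1 and is not given, and its adjusted p was 0.286.

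Over all 51 tumors, the 12 undifferentiated MCTs were compared with the 39 differentiated ones, whose unknown members had been classified from these same arrays with cell cycle genes that are not among the 21. CD4 was the 1 gene called of 21, higher in undifferentiated MCTs, while 2.41% of all probes were called and 1.32% were called higher. In the T group 6 of 12 genes had a positive and 6 a negative log2 fold change, with a median of 0.00. In the cytotoxic group 1 of 4 was positive, with a median of -0.03, and in the B group 5 of 5 were negative, with a median of -0.70, against -0.01 over all probes. None of the 5 was called, and the B group median was -0.24 after normexp background correction, which adds an offset that compresses dim probes. The median of -0.70 is the value of CD22, which was -0.26 without T77. Leaving out single undifferentiated tumors gave B group medians from -0.86 to -0.52.

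**Figure D3:**
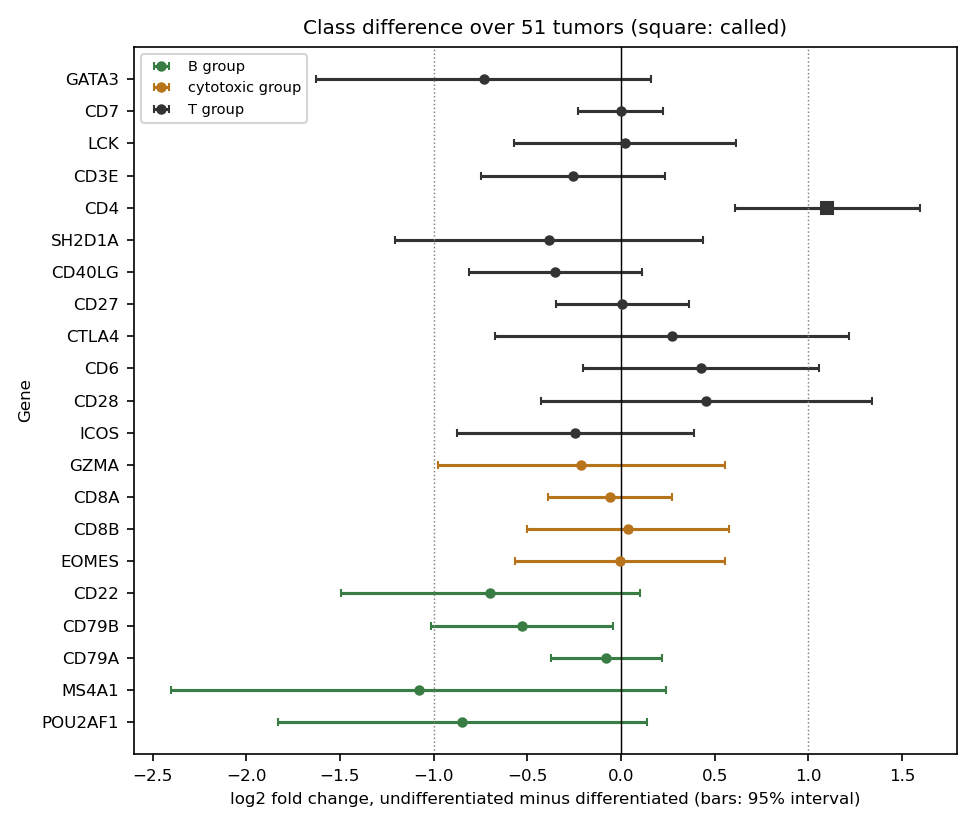
Log2 fold change of each gene between 12 undifferentiated and 39 differentiated MCTs, with its 95% interval, colored by group, and dotted lines at a fold of 2 in either direction. CD4, the square, is the 1 called gene, and the 5 B group genes lie left of 0, 4 of them with intervals that reach past it.

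CD4 was between 5.86 and 10.6 with a median of 6.73 in the undifferentiated and between 5.06 and 6.88 with a median of 6.11 in the differentiated MCTs. The ranges overlapped, since 5 of the 12 undifferentiated tumors lay above the highest differentiated one: T57, T114 at 9.20, T115 at 7.51, T132 at 7.46 and T49 at 7.33. The log2 fold change was 1.10 ± 0.25 (SE), with a limma adjusted p of 0.00107 and a 95% interval from 0.61 to 1.59. T57 and T114 carried the call. Without T57 the log2 fold change was 0.80 (adjusted p = 0.00292), without T114 0.92 (0.00556) and without both 0.57 (0.0137), each below a fold of 2. These 2 tumors also had low levels of KIT, 11.0 in each, where the lowest differentiated MCT was at 12.3. T77, with the lowest KIT of the 51 tumors, 9.11, had the lowest CD4 of the undifferentiated MCTs, 5.86. The part of such KIT differences in the CD4 level was not tested.

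Within scan days the CD4 difference between class means was 4.38 on the day of T57, the 1 undifferentiated MCT of that day. It was 2.19 on the day whose 3 undifferentiated MCTs were T114, T115 and T132. On the other 5 days with both classes it was between -0.08 and 0.58. With scan day as a fixed block, and also with slide as a fixed block, CD4 was still called. In the 33 unknown samples alone, which hold no tumor of the reference comparison, CD4 was between 5.86 and 9.20 with a median of 7.33 in the undifferentiated and between 5.06 and 6.86 with a median of 6.14 in the differentiated MCTs. T114, T115, T132 and T49 lay above the differentiated range there. The log2 fold change was 0.99 ± 0.27 (SE, adjusted p = 0.0222, limma) and 0.64 without T114 (adjusted p = 0.135). It was called, at 1.20 and 1.16, when T77 or T104 was left out.

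CD4 is carried by helper T cells and, in dogs, also by neutrophils, so genes of neutrophils and of macrophages are given beside it. The 3 measured neutrophil genes of 5 listed were all called higher in undifferentiated MCTs: S100A8 (log2 fold change of 4.03 ± 0.80 SE, adjusted p = 0.000246), S100A9 (4.36 ± 0.83, 0.000131) and the neutrophil growth factor receptor CSF3R (2.28 ± 0.43, 0.000144), by limma. The mean level of these 3 genes was between 7.65 and 15.5 in the undifferentiated and between 6.41 and 13.7 in the differentiated MCTs. Of 9 macrophage genes measured of 10 listed, CD14 was called higher (1.28 ± 0.24, adjusted p = 0.000147) and C1QA lower (-1.03 ± 0.28, adjusted p = 0.00687), and the mean level ran from 9.14 to 11.7 in the undifferentiated and from 8.64 to 12.2 in the differentiated MCTs. No gene of either list was below background on all arrays.

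The 4 tumors with the highest CD4 were also the 4 with the highest CSF3R. CSF3R was at 12.8 in T57, 11.6 in T114, 8.85 in T132 and 8.81 in T115, against 3.83 to 7.35 in the differentiated MCTs. The other neutrophil genes did not give the same order. S100A8 was at 16.78 in T57, 17.41 in T114, 16.32 in T132 and 12.09 in T115, ranks 7, 2, 10 and 18 of the 51, against 7.34 to 17.2 in the differentiated MCTs. S100A9 was at 16.97 in T57, 17.57 in T114 and 16.49 in T132, ranks 4, 1 and 8, against 6.97 to 16.93 in the differentiated MCTs, and T115 had rank 16. T132 and T115 lay within the differentiated range for both genes. CD3E in the same tumors was at 7.02, 6.12, 7.16 and 7.05, at or below the median of the 51 tumors. CD4 correlated with CSF3R at r = 0.83 and rho = 0.45 (permutation test, adjusted p = 4.5e-05 and 0.00972 over 9 genes), with r = 0.56 without T57 and T114, 0.94 within the undifferentiated and 0.19 within the differentiated MCTs, and from -0.47 to 0.97 within scan days. With CD14 it correlated at r = 0.67 and rho = 0.43 (permutation test, adjusted p = 4.5e-05 and 0.00972), 0.52 without those 2 tumors and 0.18 within the differentiated MCTs. TOP2A, a proliferation gene, had r = 0.41 and rho = 0.28 with CD4 (permutation test, adjusted p = 0.0075 and 0.106), and -0.21 within the differentiated MCTs. S100A8 had r = 0.37 and rho = 0.23 (permutation test, adjusted p = 0.0117 and 0.18), 0.17 without T57 and T114 and 0.14 within the differentiated MCTs. The other 5 genes, PECAM1, COL1A1, KLRD1, KRT5 and KIT, had r between -0.24 and 0.15, none past an adjusted p of 0.05 for r or rho. These correlations were chosen after the CD4 result was seen, and the part of neutrophils and macrophages in the CD4 level was not tested.

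The other defining genes of the T and cytotoxic groups differed less between classes than between tumors of a class. CD3E was between 4.80 and 8.18 with a median of 7.04 in the undifferentiated and between 5.99 and 9.28 with a median of 7.31 in the differentiated MCTs (log2 fold change of -0.26 ± 0.24 SE, adjusted p = 0.576, limma, and -0.06 without LM0), and the ranges overlapped. CD8A was between 4.33 and 6.51 with a median of 5.76 against 4.75 to 6.63 with a median of 5.66, again overlapping (-0.06 ± 0.17, 0.884), with a 95% interval from -0.39 to 0.28 that holds no change of a fold of 2. CD8A has a second probe, with an SD of 1.28 where the first has 0.50. By that probe the log2 fold change was 0.155, and its 95% interval from -0.684 to 0.995 nearly reached a fold of 2. The mean of both probes gave 0.05 with an adjusted p of 0.945.

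CD8B, the partner chain of CD8A, was between 2.08 and 5.83 in the undifferentiated and between 2.03 and 5.65 in the differentiated MCTs, with medians of 4.48 and 4.34 (log2 fold change of 0.04 ± 0.27 SE, adjusted p = 0.959, limma). GZMA was between 3.48 and 8.46 with a median of 7.00 against 4.53 to 9.04 with a median of 6.93 (-0.21 ± 0.38, 0.803). Both genes overlapped across nearly the whole range, and the signs of CD8A, CD8B and GZMA changed under several settings. EOMES, a transcription factor of cytotoxic cells, was well above background on none of the 12 undifferentiated arrays and on 4 of the 39 differentiated ones, so no fold is given (adjusted p = 0.995).

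Of the remaining T group genes, GATA3 and CD28 had the largest differences after CD4. GATA3 was between 7.52 and 13.0 with a median of 10.0 in the undifferentiated and between 7.01 and 13.1 with a median of 11.1 in the differentiated MCTs (log2 fold change of -0.73 ± 0.45 SE, adjusted p = 0.309, limma). CD28, the costimulatory receptor of T cells, was between 2.21 and 5.11 with a median of 3.63 against 1.63 to 7.13 with a median of 3.37 (0.46 ± 0.44, 0.581), and was well above background on 5 of 12 and 16 of 39 arrays. The ranges of both genes overlapped. The other 8 T group genes besides CD3E and CD4 had log2 fold changes between -0.39 for SH2D1A and 0.43 for CD6.

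In the B group, MS4A1 was between 1.76 and 6.34 with a median of 3.41 in the undifferentiated and between 1.76 and 9.91 with a median of 4.46 in the differentiated MCTs, and well above background on 4 of 12 and 21 of 39 arrays. Its highest levels were in differentiated tumors, and the ranges overlapped. The log2 fold change was -1.08 ± 0.66 (SE, adjusted p = 0.313, limma), with a 95% interval from -2.40 to 0.24. CD79B was between 5.31 and 6.86 with a median of 5.63 against 5.21 to 8.84 with a median of 6.25 (-0.53 ± 0.24, 0.143), the 1 B group gene of 5 with an unadjusted p under 0.05, which 26.2% of all probes also had.

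CD79A was between 4.86 and 6.22 with a median of 5.36 in the undifferentiated and between 4.76 and 6.66 with a median of 5.42 in the differentiated MCTs (log2 fold change of -0.08 ± 0.15 SE, adjusted p = 0.808, limma), and its 95% interval from -0.38 to 0.22 holds no change of a fold of 2. CD22 was between 1.91 and 8.63 with a median of 7.03 against 5.14 to 9.73 with a median of 7.32 (-0.70 ± 0.40, 0.269). The lowest CD22 level, in T77, lay apart from all other tumors, and without T77 the log2 fold change was -0.26. POU2AF1 was between 2.01 and 5.15 with a median of 2.33 against 1.99 to 7.64 with a median of 3.33 (-0.85 ± 0.49, 0.28), on 1 of 12 and 11 of 39 arrays well above background.

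**Figure D4:**
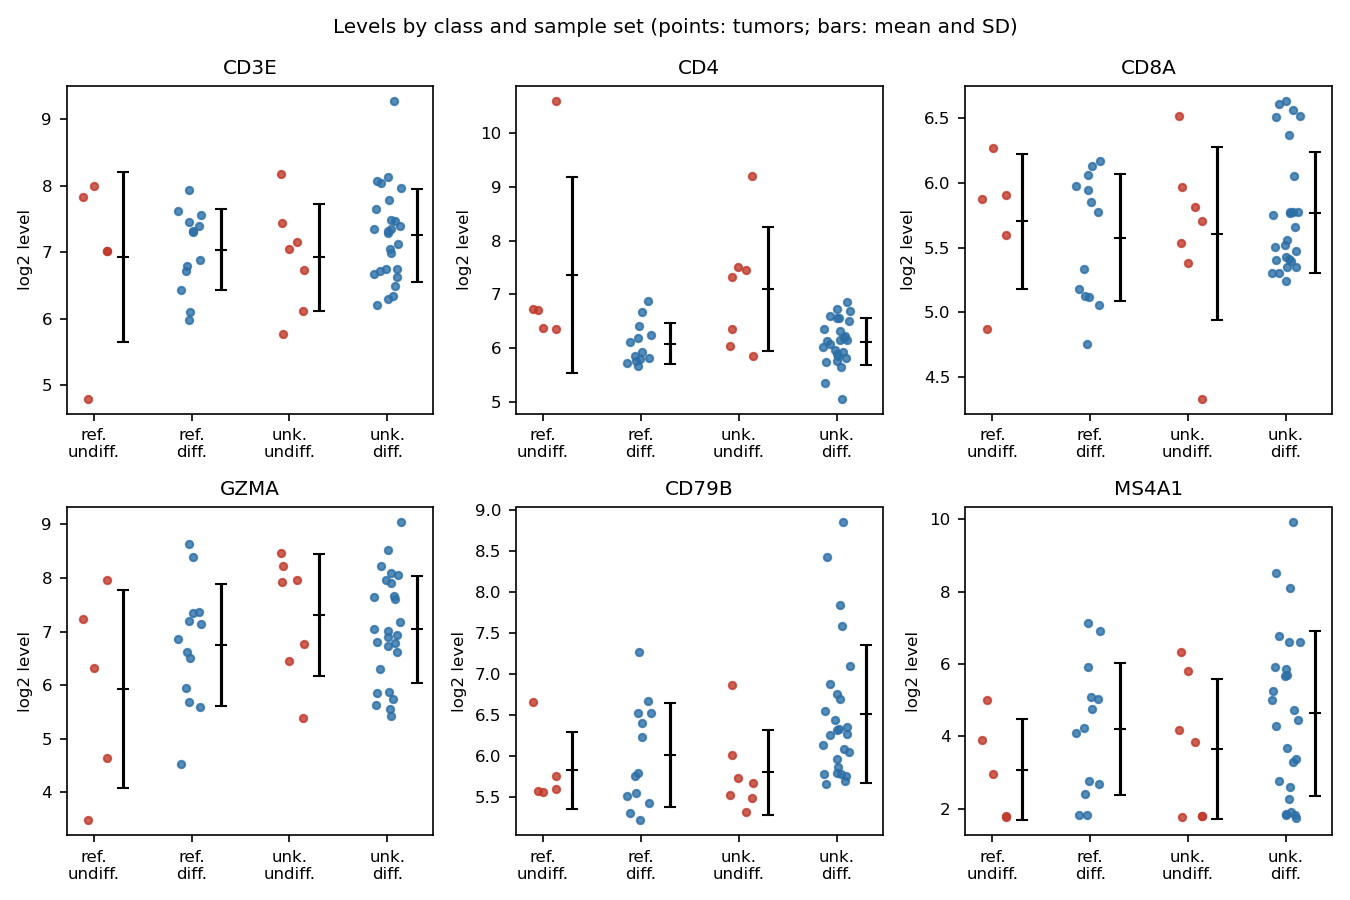
Log2 levels of CD3E, CD4, CD8A, GZMA, CD79B and MS4A1 in reference and unknown samples, 1 point per tumor, red for undifferentiated and blue for differentiated MCTs, with mean and SD. The groups overlap for all 6 genes, T57 at 10.6 and T114 at 9.20 stand out for CD4, and the highest CD79B and MS4A1 levels are in unknown differentiated tumors.

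In the unknown samples alone, none of the 21 genes was called, against 1% of all probes, and 2 had an unadjusted p under 0.05, CD4 and CD79B (-0.71 ± 0.33 SE, adjusted p = 0.226, limma), against 19.4% of all probes. The group medians there were -0.08 in the T group, -0.14 in the cytotoxic and -0.75 in the B group, against -0.04 over all probes. The class difference was also compared between the reference and the unknown samples by an interaction term, and 0 of 21 genes were called, against 0.00917% of all probes, with 0 of 21 at an unadjusted p under 0.05, against 13.7% of all probes. CD8B had the lowest adjusted p, 0.384 (difference of 1.03 ± 0.54 SE on the log2 scale, limma).

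The 4 listed genes under older names were not called in any of these 3 class comparisons. CD3D and CD3G, further chains of the CD3 complex, had log2 fold changes of -0.32 ± 0.42 and -0.13 ± 0.41 (SE) over the 51 tumors, with limma adjusted p-values of 0.713 and 0.898. CD2, an adhesion receptor of T cells, had -0.44 ± 0.31 (0.398), and TRAT1, a membrane adaptor of the receptor complex, -0.09 ± 0.24 (0.866). Their r with CD3E, given as a description over 51 tumors, was 0.92 for CD3G, 0.80 for CD3D, 0.73 for CD2 and 0.50 for TRAT1.

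The receptor signaling pathways were described by 2 further lists. In RNA of a whole tumor, which cells these transcripts came from was not tested. Of 20 listed genes of T cell receptor signaling 15 had a probe, and over the 51 tumors 0 were called in either direction, with a median log2 fold change of -0.17. Of 19 genes of B cell receptor signaling 11 had a probe, with 0 called and a median of -0.40. The lowest adjusted p-values of these were those of CD72 (-1.36 ± 0.385 SE, adjusted p = 0.0107, limma), EBF1 (-0.81 ± 0.24, 0.0148) and BANK1 (-0.99 ± 0.315, 0.0245). Each of them was also negative, and not called, in the reference and in the unknown samples. LYN alone of the list had a positive log2 fold change over the 51 tumors. In the reference classes RHOH, a small GTPase of blood cells, was called higher in undifferentiated MCTs (1.78 ± 0.33 SE, adjusted p = 0.00335, limma) and BLNK, the linker protein of B cell signaling, lower (-1.14 ± 0.20, 0.00233), 1 of 15 and 1 of 11, where 1.85% of all probes were called. In the unknown samples 0 genes of either list were called, and both genes had the opposite sign there, RHOH at -0.67 ± 0.34 (SE, adjusted p = 0.27) and BLNK at 0.40 ± 0.34 (0.593, limma). Over the 51 tumors RHOH was at 0.30 ± 0.29 and BLNK at -0.23 ± 0.25.

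Sex, breed and age moved none of the 21 genes past the limits. Between 19 male and 30 female dogs 0 genes were called, against 0.0252% of all probes, and 0 had an unadjusted p under 0.05, against 6.21%. Log2 fold changes ran from -0.33 to 0.46. Between 9 Boxers and 9 Labrador Retrievers 0 were called, against 0.0436% of all probes, with 0 at an unadjusted p under 0.05, against 4.94%. CD4 came nearest, at 0.66 ± 0.35 (SE) higher in Boxers with a limma adjusted p of 0.98, and without T114, a Boxer, it was 0.36 ± 0.21 (adjusted p = 1, a setting chosen after seeing the data). For age, over the 49 dogs with an age, 0 genes and 0% of all probes were called, with 0 of 21 at an unadjusted p under 0.05, against 2.43% of all probes. MS4A1 had the steepest slope, -0.19 ± 0.11 (SE) on the log2 scale per year, with a limma adjusted p of 1.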

How the data were processed

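The authors read the scans into Agilent Feature Extraction 9.5.1.1, whose processed signal they deposited per array as an intensity, with the background subtracted but not normalized between arrays. The authors' table, intensities quantile-normalized over 51 arrays, ranked each array as that signal did and was used as an alternative. Here the log2 of the deposited intensity was quantile-normalized over all arrays with limma 3.58.1 in R 4.3.3. Controls were left out, as were feature outliers (2 to 35 spots per array), and spots of a probe were averaged. Comparisons used lmFit and eBayes on all 43603 probes, with Benjamini-Hochberg adjustment (for age, a slope of at least 0.1 per year). Statmod 1.5.0, matplotlib 3.10.9 and numpy 2.4.6 were also used.

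The members and lists were chosen with earlier results of these data known. Full values are given for CD3E, CD4, CD8A, GZMA, CD79A, MS4A1, the 3 largest class differences of each group and every called gene. Simulated data held 200 probes changed by 2 or 3 log2 units, up or down. Of these, 162 were recovered with 2 false calls in the reference comparison and 193 with 0 in all 51. Changes near the fold limit were not simulated, so these counts do not show how many of that size would be recovered. The age comparison was planned for 50 arrays, but 49 have an age. The arrays lay on 15 slides scanned on 9 days. Each array is a separate tumor, and the number of arrays limits the precision.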

Additional observations from a re-analysis of the deposited data

Results flagged for a closer look

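Dixon's test was applied within groups of 5 to 9 tumors. It set apart a highest or lowest tumor from the others in 7 of 84 combinations of gene and group, 8.33%. For independent, normally spread values its limit sets apart about 1 in 20. The 84 combinations share tumors and hold genes that vary together, so whether 8.33% exceeds chance cannot be told. CD4 in the reference undifferentiated samples was at 10.6 in T57, with the next tumor at 6.74. CD79B in the same group was at 6.65 in T9, with the next at 5.75. CD22 in the unknown undifferentiated samples was at 1.91 in T77, with the next at 6.09, and T77 also had the lowest KIT level of the 51 tumors. Among the 9 Labrador Retrievers, CD8B was at 5.83 and CTLA4 at 7.81 in T73, CD79B at 7.84 in T106 and CD22, on the low side, at 6.09 in T80.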

How the results depend on the processing

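The count of genes called over all 51 tumors, 1, fell to 0 after normexp background correction (CD4 at 0.68, adjusted p = 0.0026, limma), without T57, without T114 and without both T57 and T114, and leaving out single undifferentiated tumors gave 0 to 1. In the unknown samples the count of 0 rose to 1, CD4, at an adjusted p under 0.05 with no fold limit and without T77 or T104, a range of 0 to 1. Without each of the 18 reference samples in turn, the reference count was 0. No other setting changed a count of called genes in any of the 7 comparisons. The count of correlations with CD3E was between 13 and 17, and 16 of 19 without dim probes. Among the genes followed through every setting, the signs of 3 near 0 turned over all 51 tumors. Of the genes not so followed, CD7 went from -0.002 to 0.068 and EOMES from -0.006 to 0.058 without LM0. LCK was at 0.023 by its brightest probe and at -0.068 by another. CD8B was at -0.024 with the 75th percentile and -0.092 with sex as a covariate, and from -0.095 to 0.246 without single tumors. CD8A was at 0.001 with scan day as a block, 0.061 with slide as a fixed block and 0.049 with the mean of its probes, and from -0.136 to 0.062 without single tumors. GZMA was at 0.153 with slide as a fixed block and 0.132 without T57 and T114, and from -0.37 to 0.083 without single tumors. Their causes were not tested. Without single undifferentiated tumors the group medians ran from -0.07 to 0.05 (T), -0.11 to 0.07 (cytotoxic) and -0.86 to -0.52 (B). Without LM0 the CD4 log2 fold change was 1.15 (adjusted p = 0.0013). Slide as a fixed block, the settings without T114 between breeds, without LM0 for single genes and reference medians, and without T57, T114, T121 or T117 together and the older gene names were chosen after seeing the data. No paired analysis was possible because each array holds a different tumor and the groups share no replicate numbers. Probes near background limit EOMES, ICOS, POU2AF1, CD6, CD28 and MS4A1.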
